A study of Mus musculus with 6 samples.

Results

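Integrin genes, 10 in number, were followed through 6 microarrays of mouse bone marrow-derived mast cells: Itgae, Itgb7, Itgax, Itgam, Itgb2, Itga4, Itga5, Itga9, Itgb1 and Itgb5. They were taken by gene name, with every noncontrol probe of each gene, which gave 10 of the 29590 genes and 14 of the 39416 probes measured. Each of the 14 probes had 1 spot per array. Of the 10 genes, 9 were well above background on all 6 arrays, and Itgb5 was on 5. The patterns and groups of genes described here were named with their values in view.

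Integrins are surface receptors made of 1 alpha and 1 beta chain that join a cell to matrix proteins or to counter-receptors on other cells. The alpha chain largely sets which ligand is bound, and the beta chain tail links to talin and kindlin and so to actin. Mast cell progenitors use alpha4 integrins, with beta7 or beta1, to leave the blood, and mature mast cells of skin and other connective tissue sit on fibronectin and laminin. Alpha E pairs only with beta7 and binds E-cadherin, and it is known from mast cells and T cells that lodge in epithelium.

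The mast cells had been grown from marrow in interleukin-3 (10 ng/ml) to at least 97% Kit-positive, FcεRIα-positive cells. They were Pla2g3+/+ or Pla2g3-/- and were arrayed without fibroblasts or after 4 days on wild-type Swiss 3T3 cells, a mouse embryo fibroblast line, in stem cell factor at 100 ng/ml. A further pair of groups held wild-type mast cells kept for the same 4 days, with the same factor, on Lpar1+/+ or Lpar1-/- Swiss 3T3 cells. The Lpar1-/- fibroblasts were made with CRISPR/Cas9 and cloned from single cells. Pla2g3 is the gene of a secreted phospholipase A2, and Lpar1 that of a lysophosphatidic acid receptor. The comparisons address what fibroblasts, Pla2g3 in mast cells and Lpar1 in fibroblasts do to maturing mast cells. The sources used here do not say whether mast cells without fibroblasts received stem cell factor, or by which isolation route the arrayed RNA was obtained.

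Every group was 1 array of RNA pooled from 3 samples, so groups had no replicates, no test was possible, and precision is limited by how many arrays there were. Levels are log2 of the scanner's processed signal relative to the 75th percentile of that array, which was 1230 and 1268 without fibroblasts and 1243 to 1520 in coculture; 70.7% to 80.4% of spots were well above background. A level belongs to its own probe and cannot be ranked against that of another gene. Higher or lower here means a difference of 2-fold or more, and the error given is that of the spots by the scanner software (± on the log2 scale), not that of the cultures. With the arrays without fibroblasts on 1 slide and the 4 cocultures on the other, a coculture difference and a slide difference cannot be told apart; comparisons among cocultures lay within 1 slide. In RNA from bulk cells, fewer cells of a type and less RNA per cell cannot be told apart. Pla2g3 went against its label, at -6.31 in Pla2g3+/+ cells and 0.51 in cells labelled Pla2g3-/- without fibroblasts, and at -7.31 and -1.84 in coculture. With wild-type mast cells it was at -6.58 on Lpar1+/+ and -4.85 on Lpar1-/- fibroblasts. The labels do not name the deleted part of Pla2g3, so each such array is called the array labelled Pla2g3-/-. Lpar1, deleted in the fibroblasts and read here in the mast cell fraction, was at -4.14 with Lpar1+/+ and -3.89 with Lpar1-/- fibroblasts. Mast cells without fibroblasts had -2.84 and -2.85, so its level does not check the fibroblast label, which is used here as given.

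**Figure D1:**
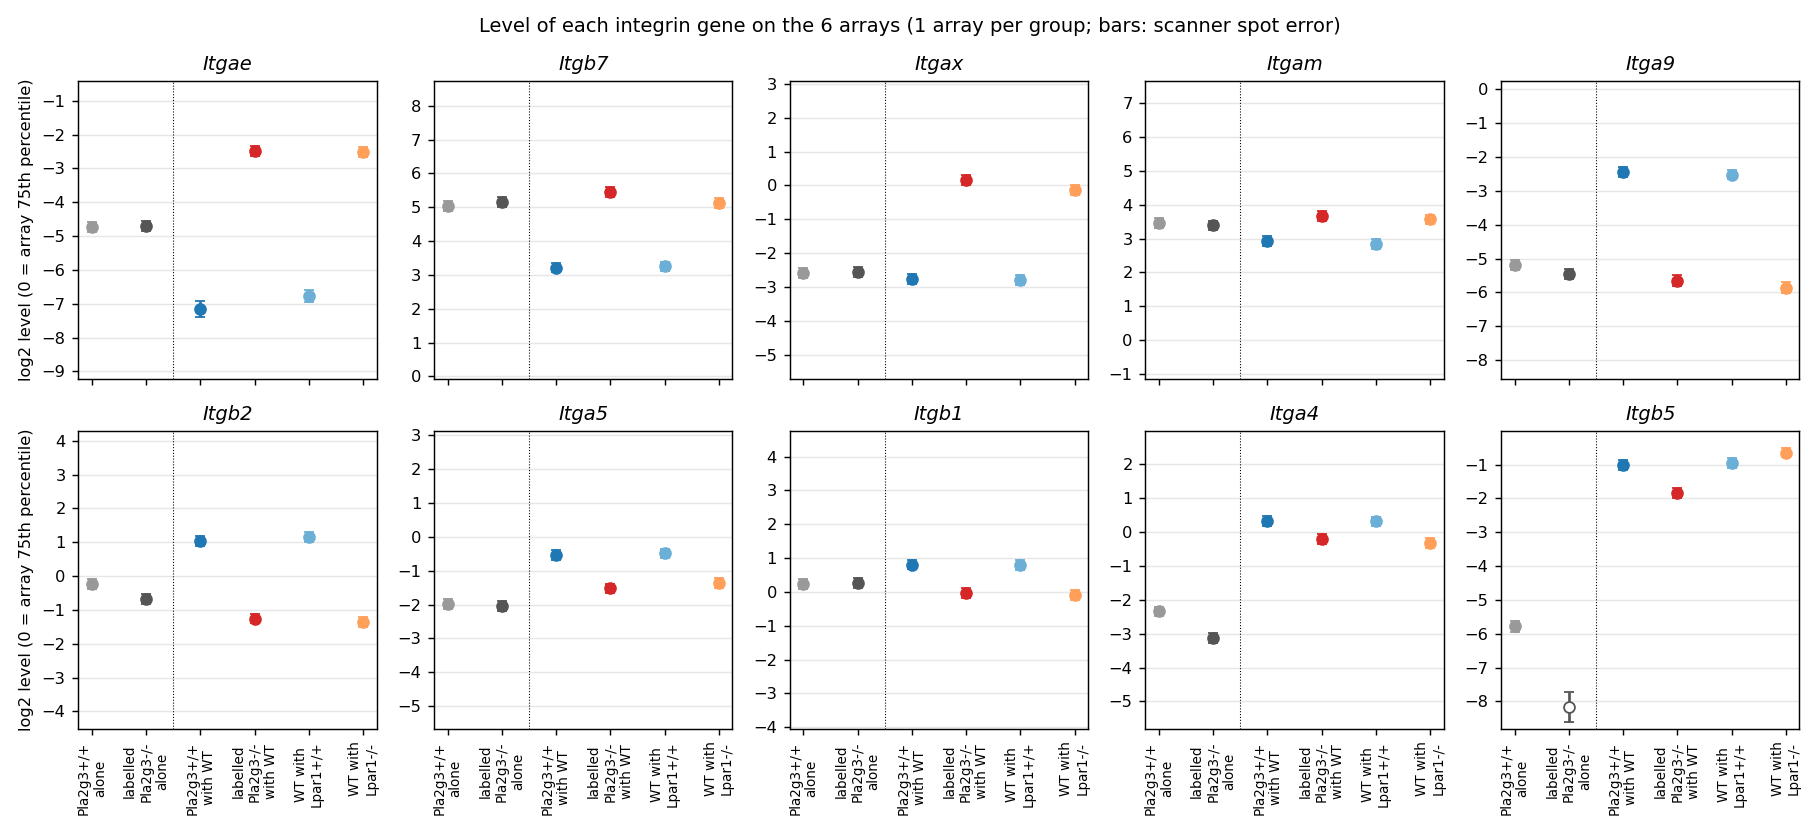
Level of each integrin gene (log2, 0 = 75th percentile of the array, every panel of equal height in log2 units) on the 6 arrays, with the scanner's spot error as bars, an open point where the gene was not well above background, and a dotted line between the slides. Both wild-type cocultures lie together for all 10 genes, Itgae, Itgb7 and Itgax lie lower there than in the other cocultures, and Itga9 and Itgb2 lie higher.

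The probe sequences show which stretch of a transcript a value stands for, and are printed where the gene's account turns on them. The Itgae probe and 1 probe each of Itga4 and Itgb1 cross a splice junction: their 60 bases map to 986 bases of chr11:72945236-72946221, to 1131 bases of chr2:79153985-79155115 and to 5896 bases of chr8:131250081-131255976 (mm9, plus strand). Genomic DNA does not hold these 60 bases as 1 run. The other members' probes map to 60 unbroken bases.
Itgae probe: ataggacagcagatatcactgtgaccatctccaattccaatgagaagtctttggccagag
Itga4 junction probe: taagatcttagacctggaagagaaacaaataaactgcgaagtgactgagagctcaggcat
Itgb1 junction probe: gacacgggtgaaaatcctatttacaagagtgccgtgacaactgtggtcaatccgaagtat

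In coculture with wild-type fibroblasts, Pla2g3+/+ mast cells had 5 of the 10 integrin genes higher and 2 lower than the same cells without fibroblasts. Itgb5, Itga9, Itga4, Itga5 and Itgb2 were the higher genes, and Itgae and Itgb7 were the lower ones. Across all genes measured, 13.0% were higher and 7.52% lower (20.6% either way of 22615; 10.8% either way with normexp background correction). Upward differences made 63.4% of these calls, and 48.8% after quantile normalization, which moved the median difference of all genes from 0.14 to 0.00. The median of the 10 members was 0.93 against 0.13 over all genes. The array labelled Pla2g3-/- gave another set: 4 members were higher in coculture (Itgb5, Itga4, Itgax and Itgae) and 0 lower. There the background was 11.4% higher and 7.30% lower (18.7% either way of 22349; 9.08% with normexp), and the median of the members was 0.40 against 0.12. Of those calls 61.0% were upward, and 50.3% after quantile normalization, with the median of all genes at 0.02. Itga4 and Itgb5 were thus the members higher with fibroblasts under both labels, and no member was lower in both.

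**Figure D2:**
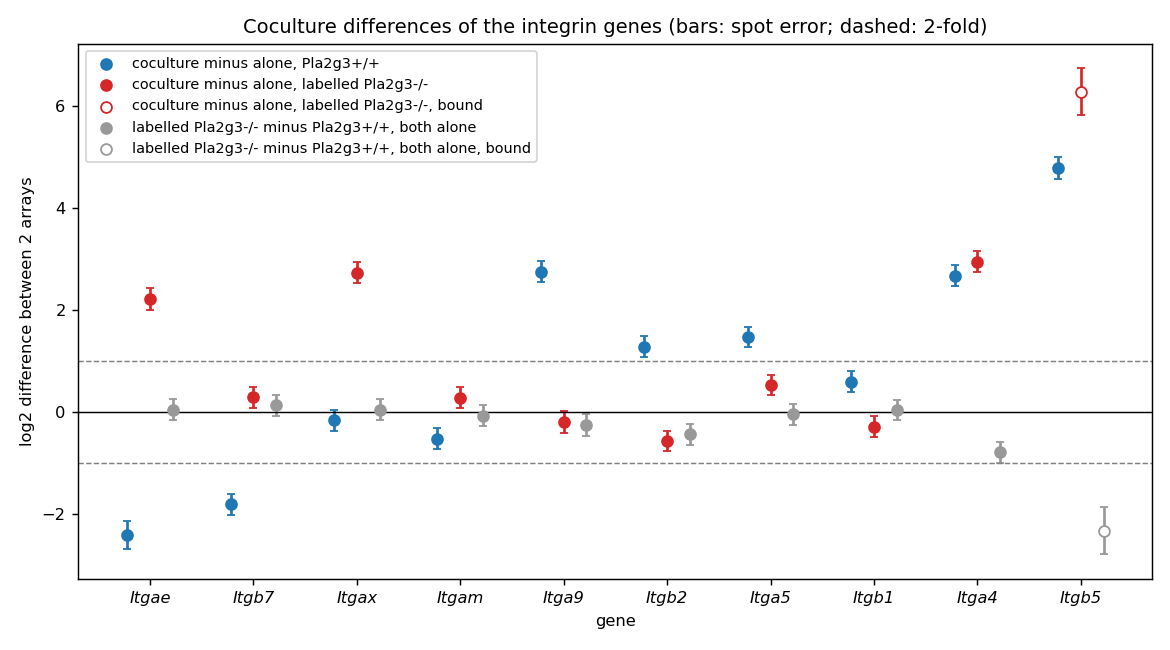
Difference between coculture and culture alone in Pla2g3+/+ and in labelled Pla2g3-/- mast cells, and between both labels without fibroblasts (log2, bars are spot errors, dashed lines 2-fold, open points bounds). Itgae lies at -2.41 under the one label and 2.21 under the other, while Itga4 and Itgb5 lie above 2-fold in both.

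Between the Pla2g3 labels without fibroblasts, 9 of the 10 members differed by less than 2-fold. Itgb5 was at least 5.03-fold lower on the array labelled Pla2g3-/-, a bound because it was not well above background there. With normexp the Itgb5 difference was -0.29, under 2-fold. The background for this comparison was 0.423% higher and 1.58% lower (2.00% either way of 21752; 0.538% with normexp), with medians of -0.07 for the members and 0.00 for all genes. Among the cocultures, the same 5 members were past 2-fold with the Pla2g3-/- label and with Lpar1-/- fibroblasts: Itgae, Itgb7 and Itgax were higher, and Itga9 and Itgb2 lower. For the label the background was 9.10% higher and 10.4% lower (19.5% either way of 22505; 11.3% with normexp), and the members' median was -0.68 against -0.08. For Lpar1-/- fibroblasts it was 11.3% higher and 8.84% lower (20.1% either way of 24545; 12.4% with normexp), and the median was -0.16 against -0.05. These comparisons share no array, though both rest on a wild-type coculture as reference. Shared calls were common among all genes too: of 22432 genes compared in both, 1742 were higher in both (85.1% of those higher with the label and 65.7% of those higher with Lpar1-/- fibroblasts), and 1539 were lower in both (65.7% and 72.6%). The label comparisons in and out of coculture and the coculture comparisons share arrays in pairs, so their values are set side by side only.

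The wild-type cocultures served as a yardstick, since both held wild-type mast cells on wild-type fibroblasts, though not stated to be of the same animals. All 10 members differed between them by less than 2-fold, from -0.09 to 0.38, with Itgae the farthest apart (0.38 ± 0.30). Over the 21930 genes well above background on both, the SD of the difference was 0.26 and 95% lay within 0.54. In this pair 0.970% of 24025 genes were past 2-fold. Every difference of the 5 members past 2-fold among cocultures was at least 1.87 in size, against 0.38 as the widest yardstick value of any member.

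**Figure D3:**
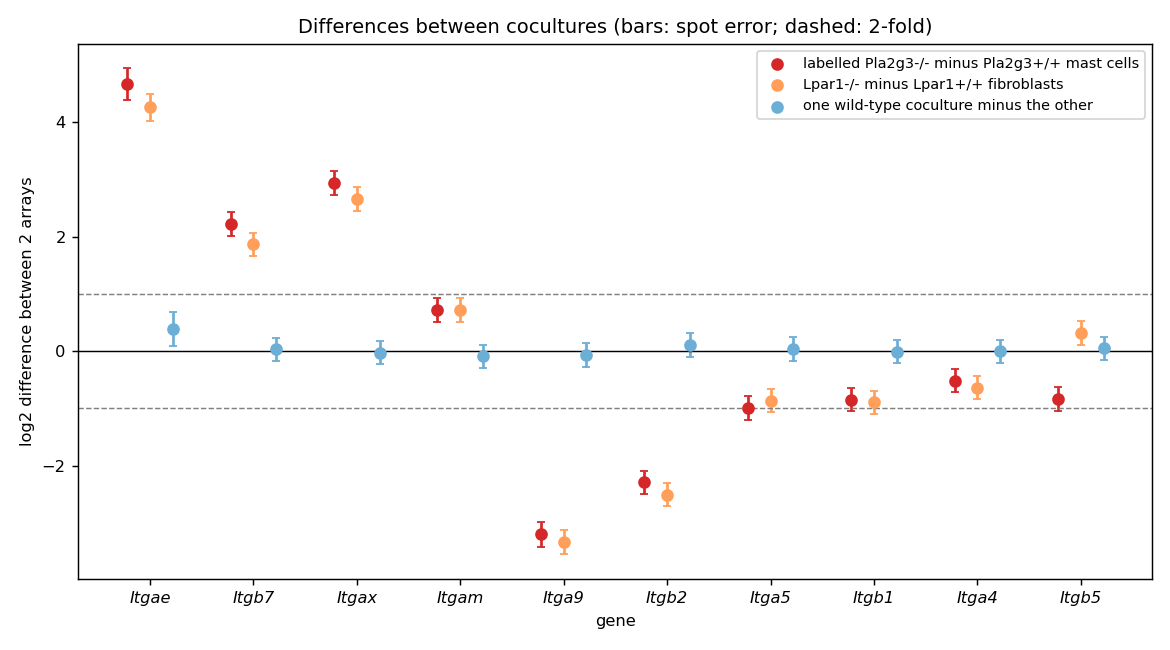
Differences between cocultures for the 10 members: the labelled Pla2g3-/- against Pla2g3+/+ mast cells, Lpar1-/- against Lpar1+/+ fibroblasts, and one wild-type coculture against the other (log2, bars are spot errors, dashed lines 2-fold). Itgae, Itgb7 and Itgax lie above 2-fold and Itga9 and Itgb2 below it in the comparisons by mast cell label and by fibroblast, while the wild-type difference of every member is within 0.38.

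Itgae (alpha E, CD103; probe on mm9 chr11:72945236-72946221) was at -4.74 in Pla2g3+/+ and -4.70 in labelled Pla2g3-/- mast cells without fibroblasts. In coculture it was at -7.15 on the Pla2g3+/+ array and -6.77 on the Lpar1+/+ array, and at -2.49 on the labelled Pla2g3-/- array and -2.51 on the Lpar1-/- array. The order was therefore wild-type cocultures, cultures alone, other cocultures, and the members within each of these steps differed by no more than 0.38. Against the cultures alone, coculture was 5.33-fold lower in Pla2g3+/+ cells (-2.41 ± 0.28) and 4.62-fold higher with the Pla2g3-/- label (2.21 ± 0.21). The difference between these coculture effects was 4.62 ± 0.35. A slide effect would cancel in it only if it were equal for both labels on the log2 scale, which was not tested. Between cocultures Itgae was 25.4-fold higher with the label (4.66 ± 0.27) and 19.1-fold higher with Lpar1-/- fibroblasts (4.26 ± 0.23). Its low wild-type levels depend on how background was treated: normexp gave 2.17 and 2.05 for these comparisons, 1.36 for coculture with the label, and -0.79 for coculture of Pla2g3+/+ cells, which ended that call. The difference between the coculture effects was thus smaller with normexp too.

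Itgb7 (beta7, the only partner of alpha E; probe on mm9 chr15:102046450-102046509, minus strand) had a bright probe and did not share that limit. It was at 5.03 and 5.16 without fibroblasts, at 3.22 and 3.25 in the wild-type cocultures, at 5.44 on the labelled Pla2g3-/- coculture and at 5.12 on the Lpar1-/- coculture. Only the wild-type cocultures stood low, and the other 4 arrays lay within 0.40 of each other. Coculture was 3.52-fold lower in Pla2g3+/+ cells (-1.82 ± 0.20) and within 2-fold with the label (0.28 ± 0.20). Itgb7 was 4.66-fold higher with the label in coculture (2.22) and 3.64-fold higher with Lpar1-/- fibroblasts (1.87). Both chains of alpha E beta7 thus lay lower in both wild-type cocultures than on the other arrays.

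The beta2 integrins are the leukocyte set: Itgb2 encodes CD18, Itgax CD11c and Itgam CD11b, and both alpha chains bind complement C3 fragments and ICAM-1 among other ligands. Their 3 genes did not move as 1. Itgax (probe on mm9 chr7:135294052-135294111) was at -2.60 and -2.56 without fibroblasts and at -2.77 and -2.79 in the wild-type cocultures. On the labelled Pla2g3-/- coculture it was at 0.16 and on the Lpar1-/- coculture at -0.14. The first 4 of these arrays lay within 0.23 of each other, and both remaining cocultures stood apart above them. Coculture left Itgax within 2-fold in Pla2g3+/+ cells (-0.17 ± 0.20) and was 6.61-fold higher with the label (2.72 ± 0.20). Among cocultures it was 7.65-fold higher with the label (2.93) and 6.32-fold higher with Lpar1-/- fibroblasts (2.66).

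Itgb2 (probe on mm9 chr10:77027978-77028037) ran the other way. It was at -0.23 and -0.68 without fibroblasts, at 1.04 and 1.14 in the wild-type cocultures, at -1.26 on the labelled Pla2g3-/- coculture and at -1.36 on the Lpar1-/- coculture. The wild-type cocultures were the highest arrays and the other cocultures the lowest. Coculture was 2.41-fold higher in Pla2g3+/+ cells (1.27 ± 0.20) and within 2-fold with the label (-0.58 ± 0.20). Among cocultures Itgb2 was 4.90-fold lower with the label (-2.29) and 5.68-fold lower with Lpar1-/- fibroblasts (-2.51), on the arrays where its partner Itgax was higher. Itgal, which encodes CD11a and was added after its values were seen, differed by less than 2-fold in each of these comparisons (-0.55, -0.58, -0.04 and -0.24 in the same order).

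Itgam was read by 3 probes, and they disagreed. The probe that stands for the gene, by its brightness, lies at transcript position 4431 (mm9 chr7:135261755-135261814). It gave 3.47 and 3.39 without fibroblasts, 2.94 and 2.85 in the wild-type cocultures, 3.66 on the labelled Pla2g3-/- coculture and 3.56 on the Lpar1-/- coculture. Its wild-type cocultures were the lowest arrays, but every difference was within 2-fold: -0.53 and 0.27 for coculture, and 0.72 in both comparisons among cocultures. The probe at position 3410 gave 0.06, 0.15, -0.40 and -0.14 in the same order, and the probe at position 270 gave 0.32, 0.22, -0.05 and -0.26. Neither repeated the 0.72. The bright probe opens with a run of alternating C and A of 20 bases (capitals below, in its first 30 bases), whereas no such repeat in the other member probes exceeded 6 bases. A repeat of that length or more was found in 88 of 39429 probes (0.223%). Its part in the brightness or in the differences was not tested.
Itgam probe at position 4431, first 30 bases: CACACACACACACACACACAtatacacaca
Itgam probe at position 3410: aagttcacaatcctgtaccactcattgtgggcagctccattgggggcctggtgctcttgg
Itgam probe at position 270: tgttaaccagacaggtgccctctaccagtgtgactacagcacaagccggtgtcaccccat

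**Figure D4:**
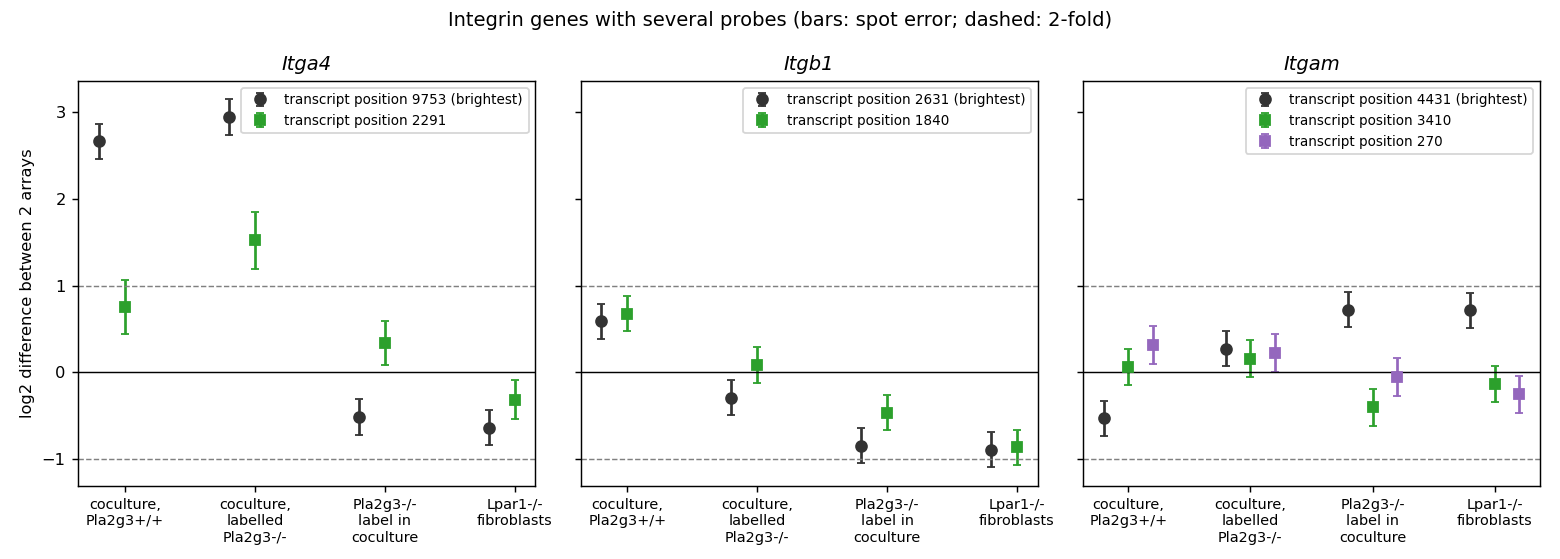
Differences by probe for the 3 members with several probes, by position in the transcript, in 4 comparisons (log2, bars are spot errors, dashed lines 2-fold). The Itga4 probes differ most in the coculture comparisons (2.66 against 0.76 in Pla2g3+/+ cells), the Itgb1 probes lie close together, and only the brightest Itgam probe is above 0 in both comparisons among cocultures.

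Itga9 differed more between cocultures than the other beta1 partners among the 10 members, Itga4 and Itga5. Alpha9 beta1 binds tenascin-C, osteopontin and VCAM-1. The Itga9 probe (mm9 chr9:118807900-118807959) was at -5.20 and -5.46 without fibroblasts and at -2.45 and -2.52 in the wild-type cocultures. It was at -5.65 on the labelled Pla2g3-/- coculture and at -5.86 on the Lpar1-/- coculture. The wild-type cocultures thus stood alone, and the other 4 arrays spanned 0.66. Coculture was 6.71-fold higher in Pla2g3+/+ cells (2.75 ± 0.21) and within 2-fold with the label (-0.20). Among cocultures Itga9 was 9.20-fold lower with the label (-3.20) and 10.1-fold lower with Lpar1-/- fibroblasts (-3.34). With normexp these values were 1.71, -1.81 and -2.01, each still past 2-fold.

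Itga5 (alpha5, which with beta1 forms the classical fibronectin receptor; probe on mm9 chr15:103175022-103175081, minus strand) was at -1.99 and -2.04 without fibroblasts. It was at -0.53 and -0.49 in the wild-type cocultures, -1.52 on the labelled Pla2g3-/- coculture and -1.35 on the Lpar1-/- coculture. All 4 cocultures were above the cultures alone, the wild-type ones by more: the coculture difference was 1.46 in Pla2g3+/+ cells, or 2.76-fold, and 0.52 with the label. Among cocultures it was -0.99 with the label, just inside the 2-fold line, and -0.86 with Lpar1-/- fibroblasts. Against the other wild-type coculture array the label difference was -1.03, just outside it.

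Itgb1, the shared beta1 chain, varied less, with a span of 0.90 over the 6 arrays. It was at 0.22 and 0.26 without fibroblasts, at 0.81 and 0.80 in the wild-type cocultures, at -0.03 on the labelled Pla2g3-/- coculture and at -0.09 on the Lpar1-/- coculture. The wild-type cocultures were highest and the other cocultures lowest, with no difference past 2-fold: 0.59 and -0.29 for coculture, and -0.85 and -0.89 among cocultures. The second Itgb1 probe (mm9 chr8:131246349-131246408) gave 0.67, 0.08, -0.47 and -0.87 in that order. Its sign differed from the first probe only for coculture with the label.

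Itga4 (alpha4, which pairs with beta1 to bind VCAM-1 and fibronectin and with beta7 to bind MAdCAM-1) was higher in all 4 cocultures. The probe that stands for it (transcript position 9753, mm9 chr2:79173193-79173252) was at -2.34 and -3.14 without fibroblasts and at 0.32 in both wild-type cocultures. On the labelled Pla2g3-/- coculture it was at -0.19, and on the Lpar1-/- coculture at -0.32. Coculture was 6.34-fold higher in Pla2g3+/+ cells (2.66 ± 0.20) and 7.69-fold higher with the label (2.94 ± 0.20), and among cocultures the differences were -0.52 and -0.64. The junction probe printed above, at position 2291, gave 0.76 ± 0.31 and 1.52 ± 0.33 for coculture and 0.34 and -0.32 among cocultures. Thus both Itga4 probes were higher in coculture, but the junction probe passed 2-fold only with the label. The junction probe was dim, at -7.33 and -7.76 without fibroblasts and between -6.58 and -5.95 in coculture. The lowest well-above signals of the arrays without fibroblasts were -8.09 and -8.11, so the size of its differences is uncertain. The mean of both probes was 1.71 and 2.23. Beside Itga4, its partner Itgb7 stood at -1.82 in the same Pla2g3+/+ comparison and Itgb1 at 0.59.

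Itgb5 (beta5, which with alpha v binds vitronectin; probe on mm9 chr16:33949123-33949182) was at -5.78 in Pla2g3+/+ cells alone and at -8.16, not well above background, on the labelled Pla2g3-/- array alone. In coculture it was at -1.00 and -0.96 on the wild-type arrays, -1.84 on the labelled Pla2g3-/- array and -0.65 on the Lpar1-/- array. All 4 cocultures were far above both cultures without fibroblasts. Coculture was 27.4-fold higher in Pla2g3+/+ cells (4.78 ± 0.22) and at least 77.3-fold higher with the label, and normexp gave 2.86 and 2.52 on the log2 scale. Among cocultures Itgb5 was within 2-fold (-0.84 with the label and 0.31 with Lpar1-/- fibroblasts). Its partner Itgav was at -1.70 and -1.71 alone and at -0.51, -1.03, -0.51 and -1.29 in the cocultures (Pla2g3+/+, labelled Pla2g3-/-, Lpar1+/+ and Lpar1-/-).

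Markers of other cells moved with some of these genes. The summed signal of 16 fibroblast markers, in units of the 75th percentile, was 0.363 and 0.179 without fibroblasts, 28.8 and 29.8 in the wild-type cocultures, 13.1 with the Pla2g3-/- label and 26.8 with Lpar1-/- fibroblasts. It was high on every array where Itga4 and Itgb5 were high; Lum was well above background on 0 of the 6 arrays, and Postn only on the Lpar1-/- array. Of 14 fibroblast markers compared, 12 were higher and 1 lower in coculture under each label, and 8 were lower and 0 higher with the label among cocultures. With Lpar1-/- fibroblasts 5 of 15 were higher and 1 lower. Of all genes 13.0% were higher and 7.52% lower in coculture of Pla2g3+/+ cells, and 11.4% and 7.30% with the label. Among cocultures the shares were 9.10% higher and 10.4% lower with the label, and 11.3% and 8.84% with Lpar1-/- fibroblasts. Each count of 1 fibroblast marker lower is near its share. Their part in the differences of the 10 members was not tested.

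The 14 mast cell markers were well above background on all 6 arrays, and their sum ran from 631 to 822. Of these, 4 were lower and 0 higher in each comparison among cocultures. For this and the next lists, the shares of all genes were 9.10% higher and 10.4% lower with the label. With Lpar1-/- fibroblasts they were 11.3% and 8.84%. For the macrophage and dendritic cell list the sum was 5.97 and 4.54 without fibroblasts, 11.4 and 11.2 in the wild-type cocultures, 3.67 with the label and 2.72 with Lpar1-/- fibroblasts. Most of the wild-type coculture sums came from Cd68 (8.76 and 8.67), a lysosomal protein that many leukocytes share. Without it, a choice made after its levels were seen, the sum was 4.24 and 2.99 without fibroblasts, 2.59 and 2.49 in the wild-type cocultures, 1.31 with the label and 1.66 with Lpar1-/- fibroblasts. Between 10 and 12 of the 15 genes were well above background on each array; Cd209a, Clec9a and Xcr1, which mark subsets of dendritic cells, were so on 0 of the 6. Of this list 5 of 11 genes were lower with the label in coculture and 3 of 12 with Lpar1-/- fibroblasts, and 0 were higher. The neutrophil and eosinophil sum was 45.5 in Pla2g3+/+ cells alone and 3.14 to 4.80 for the labelled array alone and the Pla2g3+/+ coculture. It was 2.60 with the label in coculture, 5.26 with Lpar1+/+ and 14.7 with Lpar1-/- fibroblasts, where 10 of 14 genes were higher and 0 lower. With the label in coculture 3 of 13 were higher and 5 lower. Against Pla2g3+/+ cells alone, 14 of 16 were lower and 0 higher in their coculture (7.52% of all genes lower). On the labelled array alone 13 of 16 were lower and 0 higher (1.58% of all genes lower). Of the T cell markers 0 were past 2-fold in either comparison among cocultures, 6 being compared for the label and 9 for the fibroblasts. Platelet markers gave 0 higher and 2 lower of 8 with the label and 1 higher and 1 lower of 8 with Lpar1-/- fibroblasts, the latter near the shares of all genes. The part of these cells in the Itgae, Itgax, Itgam and Itgb2 values was not tested.

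**Figure D5:**
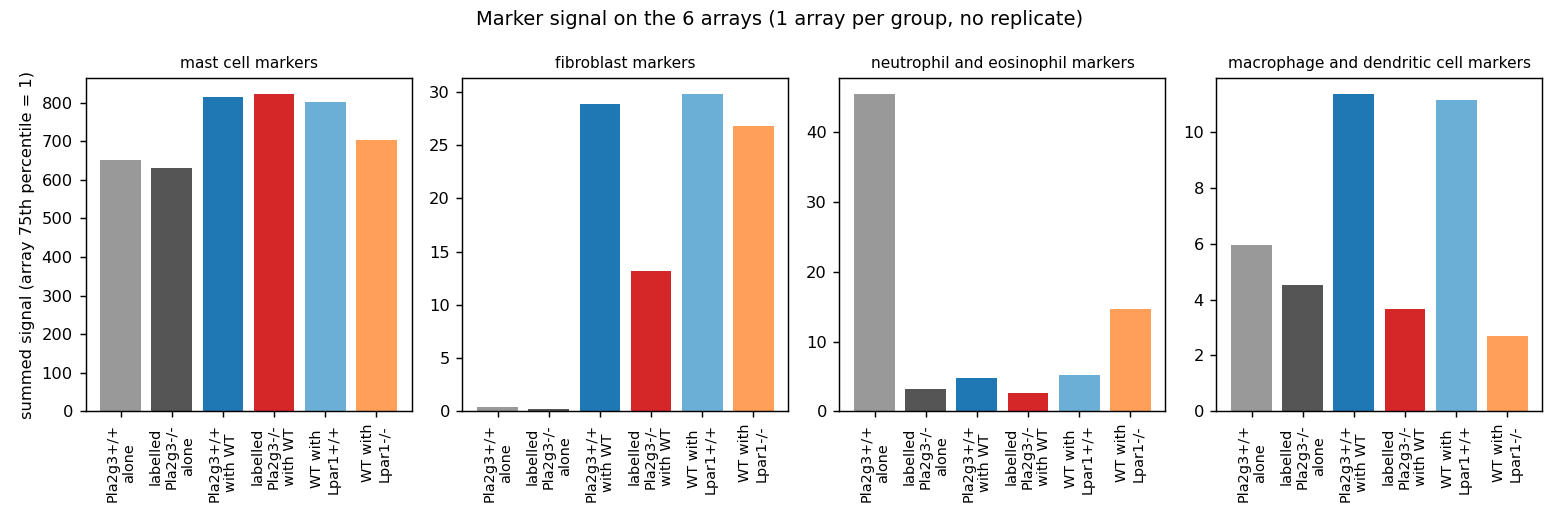
Summed signal of 4 marker lists on each array (linear, 75th percentile of the array = 1, 1 array per group). The fibroblast sum is 0.363 or less without fibroblasts and 13.1 or more in coculture, and the macrophage and dendritic cell sum is highest in the wild-type cocultures (11.4 and 11.2), where Cd68 alone gives 8.76 and 8.67.

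The other 18 integrin subunits give the setting. In coculture 4 of 14 compared were higher and 2 lower in Pla2g3+/+ cells (13.0% and 7.52% of all genes), and 4 of 14 higher and 0 lower with the label (11.4% and 7.30%). Itga3, a laminin receptor chain, was 3.46-fold higher in Pla2g3+/+ cells, where Itga7 was 3.04-fold and Itga8 at least 2.48-fold higher. Itgb6 and Itgb3 were 3.20-fold and 2.23-fold lower there. With the label Itga7 was 8.31-fold, Itga10 3.77-fold and Itga1 3.06-fold higher. Among cocultures 4 of 15 were higher and 2 lower with the label (9.10% and 10.4% of all genes), and 3 of 16 higher and 1 lower with Lpar1-/- fibroblasts (11.3% and 8.84%); the counts lower are near these shares. Itgb6 (4.07-fold and 4.15-fold), Itga6 (2.29-fold and 2.27-fold) and Itga1 (2.23-fold in each) were higher in both, and Itga8 was lower by at least 2.48-fold and 2.94-fold. Itga3 was 2.21-fold lower with the label. Itgb6, the epithelial partner of alpha v, was at -4.15 and -4.63 alone, -5.83 and -5.57 in the wild-type cocultures, -3.80 with the label and -3.51 with Lpar1-/- fibroblasts, lowest on the wild-type cocultures as Itgae was. Without fibroblasts 1 of 13 was lower and 0 higher with the label (1.58% lower and 0.423% higher of all genes). That gene was Itgb2l, 2.06-fold lower (-1.04 ± 0.31). It was dim on the labelled array, at -7.64 against a lowest well-above signal of -8.11. The median log2 difference of the list was 0.31 and 0.57 for coculture (0.13 and 0.12 over all genes), 0.21 for the label in coculture (-0.08) and -0.01 for Lpar1-/- fibroblasts (-0.05).

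Ligands were read in the same RNA. Of 26 ligand genes compared, 14 were higher and 2 lower in coculture of Pla2g3+/+ cells, and 12 higher and 4 lower with the label. Their median differences were 1.16 and 0.93, against 0.13 and 0.12 over all genes. Of all genes 13.0% were higher and 7.52% lower, and 11.4% and 7.30% with the label, so the 2 lower are near the background. Vcam1, which alpha4 and alpha9 integrins bind, was higher by at least 261-fold and 61.5-fold, Fn1 (fibronectin) 179-fold and 97.7-fold, and Lamb1 (a laminin chain) at least 224-fold and at least 153-fold. These genes were high where the fibroblast markers were high, and the fibroblasts' part in them was not tested. Fbln5, Vegfa and Jam2 were 8.65-fold, 4.33-fold and 3.45-fold lower in coculture with the label, and Lama5 was 7.12-fold lower in Pla2g3+/+ cells.

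Cdh1, E-cadherin and the ligand of alpha E beta7, was at -3.83 and -4.49 without fibroblasts and at -7.81 and -7.45 in the wild-type cocultures. It was at -4.95 with the label in coculture and at -3.95 with Lpar1-/- fibroblasts. The wild-type cocultures stood lowest, as for Itgae and Itgb7. Cdh1 was 15.8-fold lower in coculture of Pla2g3+/+ cells, 7.27-fold higher with the label among cocultures and 11.3-fold higher with Lpar1-/- fibroblasts. Its wild-type coculture levels lay near the lowest well-above signals of those arrays (-8.07 and -8.44). The sizes of these folds therefore rest on dim spots, and they are given for the main processing only. Madcam1, the ligand of alpha4 beta7, lay between -6.02 and -5.18 on the 6 arrays, and Vtn (vitronectin) was not well above background on any.

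Among cocultures 3 of 26 ligand genes were higher and 11 lower with the label (9.10% and 10.4% of all genes). The count higher is near its share, and the list median was -0.64 against -0.08 over all genes. Icam5 and Lama5 were 3.93-fold and 2.79-fold higher, and Lama4, Jam2 and Fbln5 were 8.68-fold, 7.44-fold and 6.68-fold lower. With Lpar1-/- fibroblasts 5 of 28 were higher and 7 lower (11.3% and 8.84% of all genes), with a median of -0.18 against -0.05. Postn was at least 15.9-fold and Ccn2 11.5-fold higher, and F11r, C3 and Vcam1 were 35.3-fold, 5.93-fold and 3.79-fold lower. F11r encodes JAM-A, a ligand of CD11a/CD18, and C3 is the source of the fragment that CD11b/CD18 and CD11c/CD18 bind. Without fibroblasts 1 of 20 was higher with the label (Fga, at least 2.70-fold) and 3 were lower (Thbs1 15.4-fold, F11r 2.30-fold and C3 2.07-fold). Of all genes 0.423% were higher and 1.58% lower in that comparison.

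Inside the cell, integrins are switched on by talin and kindlin and signal through focal adhesion proteins. Of 38 adaptor and partner genes compared, 9 were higher and 3 lower in coculture of Pla2g3+/+ cells, and 8 higher and 2 lower with the label. Over all genes 13.0% were higher and 7.52% lower, and 11.4% and 7.30% with the label, so the counts lower are near the background. The list medians were 0.25 and 0.11, against 0.13 and 0.12 over all genes. Parva was 44.6-fold and 19.7-fold higher, Bcar1 (p130Cas) 32.0-fold and 17.9-fold, and Dab2 10.1-fold and at least 11.6-fold. Parvg, the leukocyte parvin, was 2.20-fold and 2.38-fold lower. Src and Fermt2 were 2.20-fold and 2.14-fold lower in Pla2g3+/+ cells. Fermt3, the kindlin of blood cells, stayed between 1.85 and 2.07 on the 6 arrays, and Tln1 (talin) between 5.73 and 6.19.

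In both comparisons among cocultures 0 adaptor genes were higher, with 4 lower for the label and 3 lower for Lpar1-/- fibroblasts, and the list medians were -0.22 and -0.19 against -0.08 and -0.05 over all genes. The counts lower are near the shares over all genes, 10.4% and 8.84%, while 9.10% and 11.3% of all genes were higher. Rasgrp2, the exchange factor CalDAG-GEFI that activates Rap1 ahead of integrin activation, was 8.99-fold and 5.42-fold lower. It was at -3.60 in Pla2g3+/+ cells alone, -3.59 and -3.30 in the wild-type cocultures, and -5.63, -6.76 and -5.74 on the labelled Pla2g3-/- array alone, the labelled coculture and the Lpar1-/- coculture. Rasgrp2 was thus 4.10-fold lower with the label without fibroblasts also. Ptk2 and Bcar1 were 2.17-fold and 2.04-fold lower with the label, and Parvb and Rap1a 3.89-fold and 2.18-fold lower with Lpar1-/- fibroblasts.

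For the members whose levels spanned at least 2, the genes most like them over the 6 arrays were sought. The search covered 19746 genes with a probe well above background on each array, not always the probe whose level was used. Likeness was the root mean square (RMS) difference of levels centred on each gene's mean. Closest to Itgae were the olfactory receptor genes Olfr1052 (RMS difference 0.16) and Olfr1036 (0.19) and Zfp831 (0.26). Olfr1052 was at -8.17 on the Pla2g3+/+ coculture array, below the lowest well-above signal of that array (-8.07). Itgax stood at rank 191 (0.90) and Itgb7 at rank 409 (1.07). Both shared the direction of Itgae among cocultures but not its course against culture alone. In coculture of Pla2g3+/+ cells Itgax differed by -0.17 and Itgae by -2.41. With the label Itgb7 differed by 0.28 and Itgae by 2.21. Closest to Itgb7 were H2-Oa (0.08), Ddit4 (0.11) and Cacng7 (0.12), and closest to Itgax were 1700041G16Rik (0.16), Ypel2 (0.17) and Ldlrad4 (0.18). Itga9 was nearest to Nt5dc2 (0.13), Cln8 (0.14) and Slc5a11 (0.23), with Itgb2 at rank 102 (0.55). Itgb2 was nearest to Nlrp3 (0.10), Dusp16 (0.16) and Mcm10 (0.16). Closest to Itga4 were Dram1 (0.19), Zfp326 (0.20) and Smad3 (0.21), and closest to Itgb5 were Ppic (0.14), Camk2d (0.44) and Timp2 (0.46).

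Promoter sequences were read for 8 of the 10 members from RefSeq (GRCm38.p6), each 250 bases before to 50 bases after the start of the gene, since several members shared a pattern over the arrays. Those of Itgae and Itgb2, which were among the members sharing a pattern, were not available and were not searched. The 5 motifs were searched on both strands, and matches to different motifs may overlap. TGANTCA (AP-1) was in 2 members, Itgax and Itga9, and in 7.81% of all 32851 promoters of that length. TGTGGT (RUNX) was in Itga4 and Itgax and in 16.8% of all promoters. The motif of GATA factors, searched for as AGATAA, was in Itgax alone and in 11.2% of all. CANGTG (MITF) was in Itga9, Itgb7 and Itgb5 and in 44.9%, and CAGAC (SMAD) was in 7 of the 8, all but Itgb5, and in 49.6%. The Itgax promoter held all of these motifs but that of MITF. A match is a run of letters, not a shown site. The windows below give matches in Itgax, Itgb7 and Itga4 with the motif in capitals, at chr7:128129483-128129512 and chr7:128129322-128129350 (plus strand), chr15:102232115-102232143 (minus strand) and chr2:79255355-79255383 (plus strand) of GRCm38.p6. They lie 56, 217, 197 and 60 bases upstream of the start.
Itgax AP-1: cccacctcctcTGAGTCAcgctgacaactt
Itgax GATA: tgagagggatcAGATAAtccgggagttta
Itgb7 MITF: tgcgtctgtgaCATGTGtgggggcagggg
Itga4 RUNX, on the other strand: tgagccactgcACCACAcccaggacccca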

How the data were processed

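The authors ran Agilent Feature Extraction 12.1.1.1 on 1-colour (Cy3) scans, per the file headers. It subtracted background and gave dim spots a surrogate intensity, so low levels rest partly on that surrogate. Values in the deposited table are a linear signal, made by the authors by dividing the processed intensity by the array's 75th percentile (ratios checked against the scanner values, and used as an alternative). Well-above-background and outlier marks were used as deposited.

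From the processed intensity, log2 minus the 75th percentile over 43020 noncontrol spots was computed in Python 3.11.15 (numpy 2.4.6, pandas 2.3.3). Outlier spots (84 to 115 per array) were dropped and no spot was saturated (0). A gene was represented by its probe of highest mean level, and counted as well above background on an array if any of its probes was. Accessions named 33002 spots through RefSeq of GRCm38.p6, symbols 3072 and synonyms 16, and 6930 kept the file's name. Probe coordinates are those of the files (mm9). Exon or UTR is not stated, since annotation of mm9 was not used here.

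Genes well above background on at least 1 of the arrays compared were called at 2-fold. With 1 dim array the value is given as "at least N-fold", against the higher of that array's lowest well-above signal and the dim probe's own. The calling step was tested on simulated data. Normexp background correction (offset 50) used limma 3.58.1 in R 4.3.3, and quantile normalization was computed in Python. The other alternatives were the percentile over probes well above background on all arrays, the mean of probes, stricter and no filters on dim probes, outlier spots kept, a 3-fold threshold and the other wild-type coculture. With 1 array per group no p-value is given.

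The members, gene lists and marker lists were chosen with earlier results of these data known. Named genes are the members, Pla2g3 and Lpar1, up to 3 highest and 3 lowest genes past 2-fold of each integrin list in a comparison, and the 3 nearest genes of each member that spans at least 2 on the log2 scale. Itgal, Itgav, Madcam1, Vtn, Fermt3, Tln1 and Cd68 were added after their values were seen.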

Additional observations from a re-analysis of the deposited data

Results flagged for a closer look

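Itgae stood out because coculture went opposite ways under the mast cell labels: the log2 difference was -2.41 in Pla2g3+/+ cells and 2.21 on the array labelled Pla2g3-/-. The difference between these effects was not tested, since each group was 1 array. With normexp background correction the values were -0.79 and 1.36, still opposite in sign.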

How the results depend on the processing

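The 10 members' differences were recomputed under each alternative but the 3-fold threshold, wherever a member could be compared, which gave 418 values. No called difference changed sign (0 of 22), 389 stayed within the spot error of the reported value and 29 moved further. Many of the 389 could not move, so their number does not measure robustness. Keeping outlier spots, or requiring both arrays to be well above background, gave the same member values wherever they could be compared. The mean of probes could change only Itga4, Itgb1 and Itgam, and the deposited table holds the same signal. At the 2-fold line, 3 of these values changed a call. With normexp, Itgae in coculture of Pla2g3+/+ cells (-0.79) and Itgb5 with the Pla2g3-/- label without fibroblasts (-0.29) came inside it. Against the other wild-type coculture, Itga5 with the label in coculture passed it (-1.03). The count of members past 2-fold with the label without fibroblasts therefore went from 1 to 0 with normexp, and to 0 when both arrays had to be well above background. That stricter filter also left Itgb5 uncompared in coculture with the label, where the count went from 4 to 3. At the 3-fold threshold Itga5 and Itgb2 lost their calls in coculture of Pla2g3+/+ cells (7 members to 5), and the other counts stayed the same. Over all genes, normexp left 2446 calls of 4648 in coculture of Pla2g3+/+ cells, 2029 of 4178 with the label, 117 of 436 for the label alone, 2549 of 4394 for the label in coculture and 3044 of 4940 for Lpar1-/- fibroblasts. No paired analysis was possible because each group held 1 array, and no replicate could be left out. Low signal over background limits Itgae, Itga9 and Itgb5 most. Slide and coculture cannot be told apart, and pooling 3 samples before hybridisation hides the spread between cultures.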
